A study of Homo sapiens with 18 samples.

Results

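The innate response genes examined here were 51 genes of the interferon and NF-kappa-B pathways, taken by symbol from the array's probe-to-gene table. They hold nucleic acid sensors, signal factors, interferons, interferon-stimulated effectors, chemokines, cytokines, and feedback and surface genes. A transcript cluster, the set of probes that the array summarises as 1 value, was a member when every symbol it carried was on the list. This gave 55 of the 33297 clusters on the array, for 50 of the 51 genes, and STAT2 is not analysed here. LTB had 4 clusters and TNF 3, and some of these were copies with the same values, so that 51 clusters had values of their own. Where a gene had several clusters, the brightest is given.

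Expression was measured in HEK293, a human embryonic kidney cell line, after transfection with plasmid DNA in Lipofectamine 2000. The 6 groups were control vector, RHOXF1 expression vector and RHOXF2 expression vector, each at 24 h and 48 h after transfection, with 3 arrays per group that the labels call biological triplicates. Every group carried a plasmid and the lipid reagent, and no untransfected or lipid-only cells were analysed here. A comparison with control vector therefore sets one plasmid against another. The treatment text names a GFP vector among the plasmids, and the labels leave unsaid if GFP is part of the RHOX constructs. Transfection was transient, and the share of cells that took up plasmid is not given. RHOXF1 and RHOXF2 are X-linked homeobox genes whose proteins bind DNA. Values are log2 RMA values, on which a difference of 1 is a doubling of signal.

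Cells sense foreign DNA in the cytosol through cGAS and STING, and foreign RNA through RIG-I and MDA5. Both routes activate IRF3 and NF-kappa-B, which switch on type I and type III interferons, chemokines and cytokines. Secreted interferon then acts through its receptors and JAK kinases on the interferon-stimulated response element (ISRE) of effector genes such as ISG15, IFIT1 and MX1. HEK293 cells carry early genes of an adenovirus, some of whose products are known to blunt interferon responses.

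The promoters of 6 members are printed because they hold the elements these pathways act through and belong to the genes the results turn on. IFI44L, IFI27 and NFKB2 differed between the times, while ISG15, CXCL10 and IFNB1 are textbook readouts of an innate response. Each window runs from 250 bases before to 50 bases after the RefSeq transcription start (GRCh38.p14), 5′ to 3′ on the strand of the gene. Capitals mark matches to the ISRE core (GAAA, any pair of bases, then GAAA) or to the kappa-B consensus, searched on both strands. Overlapping matches were all counted, and a gene with several starts was counted once. IFI27 and NFKB2 have more starts than the one shown.
IFI44L chr1:78620198-78620497, plus strand: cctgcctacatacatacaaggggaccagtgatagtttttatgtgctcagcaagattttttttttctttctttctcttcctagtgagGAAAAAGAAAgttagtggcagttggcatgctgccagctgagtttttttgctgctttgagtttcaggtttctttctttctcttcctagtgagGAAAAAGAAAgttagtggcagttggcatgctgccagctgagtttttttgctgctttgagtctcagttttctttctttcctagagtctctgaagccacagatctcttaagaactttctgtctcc
IFI27 chr14:94110486-94110785, plus strand: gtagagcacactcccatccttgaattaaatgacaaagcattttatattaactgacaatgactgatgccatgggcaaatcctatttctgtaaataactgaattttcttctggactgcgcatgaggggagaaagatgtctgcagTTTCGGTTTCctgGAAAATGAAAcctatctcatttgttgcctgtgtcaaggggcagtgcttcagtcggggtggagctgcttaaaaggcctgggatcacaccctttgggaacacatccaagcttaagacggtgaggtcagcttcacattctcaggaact
ISG15 chr1:1013247-1013546, plus strand: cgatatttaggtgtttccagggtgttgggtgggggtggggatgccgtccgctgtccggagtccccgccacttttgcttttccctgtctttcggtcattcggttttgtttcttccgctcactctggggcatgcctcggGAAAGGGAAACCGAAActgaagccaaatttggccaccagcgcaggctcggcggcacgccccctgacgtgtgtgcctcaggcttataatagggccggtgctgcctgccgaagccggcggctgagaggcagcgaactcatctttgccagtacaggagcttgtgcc
CXCL10 chr4:76023448-76023747, minus strand: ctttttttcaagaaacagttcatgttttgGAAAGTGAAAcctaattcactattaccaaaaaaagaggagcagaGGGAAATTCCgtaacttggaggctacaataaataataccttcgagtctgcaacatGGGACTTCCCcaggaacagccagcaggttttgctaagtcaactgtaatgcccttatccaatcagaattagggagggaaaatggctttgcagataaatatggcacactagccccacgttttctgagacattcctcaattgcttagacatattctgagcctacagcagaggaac
IFNB1 chr9:21077893-21078192, minus strand: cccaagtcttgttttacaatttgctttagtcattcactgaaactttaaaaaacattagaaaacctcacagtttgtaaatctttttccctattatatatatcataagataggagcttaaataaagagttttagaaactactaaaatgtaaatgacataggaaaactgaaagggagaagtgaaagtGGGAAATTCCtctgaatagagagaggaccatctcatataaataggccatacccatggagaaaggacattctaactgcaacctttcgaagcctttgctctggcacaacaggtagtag
NFKB2 chr10:102394328-102394627, plus strand: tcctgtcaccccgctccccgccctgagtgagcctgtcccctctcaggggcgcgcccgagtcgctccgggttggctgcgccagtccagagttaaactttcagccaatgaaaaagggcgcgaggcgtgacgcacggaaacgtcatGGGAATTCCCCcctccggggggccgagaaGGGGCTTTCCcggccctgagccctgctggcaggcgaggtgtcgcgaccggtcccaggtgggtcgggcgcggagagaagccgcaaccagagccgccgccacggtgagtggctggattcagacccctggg

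Promoter windows were matched for 39 of the 50 genes. An ISRE core lay in the windows of 18 of 24 members of the interferon side (75%) and of 0 of 15 members of the NF-kappa-B side, against 4.38% of the 27305 genes with a window. Among the interferon-stimulated effectors it was found in 15 of 17 (88.2%). The kappa-B consensus lay in 9 of 15 NF-kappa-B side members (60%) and in 7 of 24 interferon side members (29.2%), against 13.3% of all genes. In the IFI44L window the ISRE core occurs at 164 and at 73 bases before the start, and in the ISG15 window 2 overlapping cores lie at 113 and 107 bases. CXCL10, a chemokine induced by interferon, has both kinds of match, with the ISRE core at 221 bases and kappa-B matches at 177 and 122. IFNB1, which encodes interferon beta, has its kappa-B match at 66 bases before the start. A match describes the letters of these windows and shows no binding.

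Signal on the array depends on the probes as well as on the transcript, so each member was set only against a reference of genes with little transcript expected in these cells. The reference was 360 clusters of olfactory receptor genes, whose mean levels had a 5th percentile of 3.33, a median of 4.33 and a 95th percentile of 5.79. Over all 18 arrays, 28 of the 50 member genes had a mean level above that 95th percentile, 22 did not, and 10 lay below the olfactory median. Genes called above the range exceed this 95th percentile only. The brightest olfactory cluster read 7.14, and some of the 28, such as ISG15 at 6.87, lay below it. The count was 28 also when each array was left out in turn. Markers of HEK293 cells were above the range in 7 of 7 cases, among them the neurofilament genes NEFM (12.82) and NEFL (12.70). Of 9 immune and blood cell markers 2 were above it, CD68 (8.19) and CSF1R (6.04), while PTPRC (3.61), LYZ (3.92), CD14 (5.72) and CD3E (5.03) were not. The mean over those 9 markers was 4.98 to 5.31 per array at 24 h and 5.01 to 5.14 at 48 h. As a check of the labels, RHOXF1 read 12.13 to 12.32 on RHOXF1 arrays and 5.67 to 6.56 on control arrays, and the RHOXF2 cluster, shared with its near-identical copy RHOXF2B, 12.78 to 12.96 on RHOXF2 arrays and 6.44 to 7.12 on control arrays. The RHOXF1 cluster also read 6.94 to 9.12 on RHOXF2 arrays.

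Among the sensors, cGAS (gene CGAS), which makes the messenger that activates STING, had a mean of 3.75 and a range of 3.44 to 4.12 over the 18 arrays. MDA5 (IFIH1), a sensor of long double-stranded RNA, had a mean of 3.52, and RIG-I (RIGI), a sensor of RNA with a triphosphate end, 5.99. CGAS and IFIH1 thus lay below the olfactory median on every array, and RIGI just above the reference range. Of the genes that pass the signal on, STING1 read 8.24 and MAVS, the adaptor of the RNA sensors, 8.53, both above the reference range. So were the interferon regulatory factors IRF3 (8.71), which is activated by phosphorylation, IRF7 (7.46) and IRF9 (6.63). Both subunits of the type I interferon receptor were also above it, IFNAR1 at 9.14 and IFNAR2 at 7.28.

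The ligands stood on both sides of the reference range. IFNB1, the interferon made first in most cells, had a mean of 3.60 and never read above 3.78 on any array. IFNL1, a type III interferon, had a mean of 6.27 (6.13 to 6.44). Of the 21 interferon-stimulated effectors, 11 were above the range and 10 within it. Above were IFI6 (8.74), a mitochondrial survival protein; USP18 (7.66), which removes ISG15 from proteins; HERC5 (7.49), which attaches it; and ISG15 itself (6.87). IFIT5, IFI35, IFI27, ISG20, IFI44L, OAS1 and PARP9 were also above. Within the range were effectors that are textbook responders, among them the RNA-binding IFIT1 (5.44), IFIT2 (4.16) and IFIT3 (4.49), the GTPase MX1 (4.87), viperin (RSAD2, 4.13) and IFI44 (3.97), with OAS2, OAS3, OASL and DDX60. The ISRE core was present in 7 of 7 effectors within the range that had a promoter window and in 8 of 10 above it.

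Interferon-induced chemokines, which draw T cells, read low: CXCL10 had a mean of 3.69 and CXCL11 of 3.72, and CCL5, at 5.81, was barely above the reference limit. Of 6 chemokines driven by NF-kappa-B, CXCL1 (6.27), CXCL8 (6.01) and CXCL3 (5.87) were above the limit and CCL2 (5.03), CCL20 (4.49) and CXCL2 (4.33) were not. The cytokines IL6 (4.58), IL1A (4.26) and IL1B (4.22) lay within the range, TNF (5.97) just above it and LTB (7.82), a membrane-bound lymphotoxin subunit, well above it. The feedback and surface genes of the NF-kappa-B side were above the range in 6 of 7 cases. These were the inhibitors NFKBIA (9.54) and NFKBIE (7.38), the precursor and partner subunits NFKB2 (8.41) and RELB (7.07), the ubiquitin editor TNFAIP3 (7.08) and TNFAIP2 (7.04), while the adhesion receptor ICAM1 read 5.67. Each role group but the signal factors thus had members both within and above the range.

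**Figure D1:**
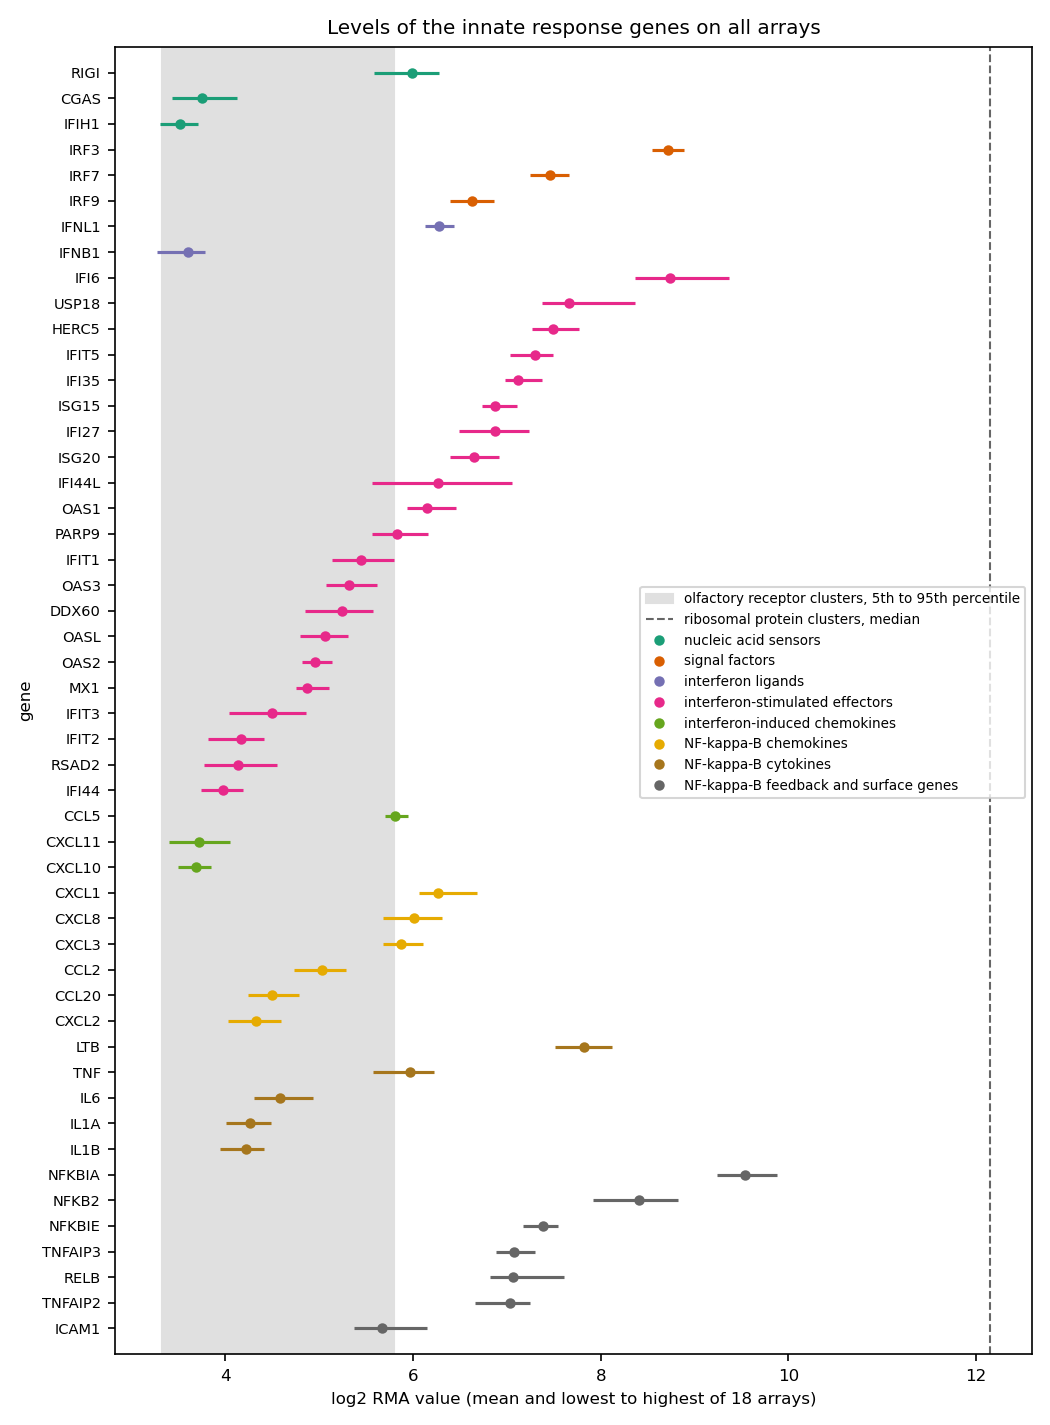
Level of each member gene by role, as log2 RMA value on the x axis, with points for the mean and bars for the lowest to highest of 18 arrays. The grey band is the 5th to 95th percentile of 360 olfactory receptor clusters (3.33 to 5.79) and the dashed line the median of ribosomal protein clusters (12.15); 22 of the 50 genes have their point inside the band.

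No member differed past the threshold between cells with a RHOX vector and cells with control vector at either time. By limma, 0 of 55 member clusters passed an adjusted p of 0.05 with RHOXF1 at 24 h (0.00471% of all 21214 named clusters passed), with RHOXF2 at 24 h (0.00943%), with RHOXF1 at 48 h (0.00943%) or with RHOXF2 at 48 h (0.0943%). At an unadjusted p under 0.05 the counts in that order were 8 of 55 (4.76% of all clusters), 5 (7.99%), 5 (7.22%) and 8 (12.2%). Arrays of the 2 groups did not overlap for 7 member clusters (9.53% of all), 8 (11.1%), 6 (12.6%) and 5 (11.8%). In both 24 h comparisons the unadjusted and non-overlap counts hold LTB more than once, through clusters of identical values. Both RHOX groups of a time share their 3 control arrays, so their differences are not independent. In bulk RNA, fewer cells with a transcript and less transcript per cell cannot be told apart.

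Over all 50 member genes the highest upper limit of a 95% interval was 1.58-fold with RHOXF1 at 24 h (IFI44L), 1.57-fold with RHOXF2 at 24 h (IFI44L), 1.54-fold with RHOXF1 at 48 h (CGAS) and 1.67-fold with RHOXF2 at 48 h (USP18). The lowest lower limits in that order were 0.645-fold (RSAD2), 0.692-fold (LTB), 0.733-fold (IFI44L) and 0.686-fold (IFI44L). They are limits of array signal for single genes, not adjusted for their number, and for the 22 genes not above the olfactory range they do not bound a change in transcript. At 24 h, 24 of 50 members read higher with RHOXF1 (median log2 difference -0.013) and 25 of 50 with RHOXF2 (-0.0063). At 48 h, 35 read higher with RHOXF1 (median 0.055, against 0.0080 over all named clusters) and 34 with RHOXF2 (0.046, against 0.013). The array RHOXF2 48 h replicate 3 stood apart from the other arrays of its time: on the first principal component, which held 34.1% of the variance, it lay at -4.48, the other 48 h arrays between 9.36 and 26.3 and the 24 h arrays between -17.2 and -8.71. Without it, 30 of 50 members read higher with RHOXF2 at 48 h (median 0.023).

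**Figure D2:**
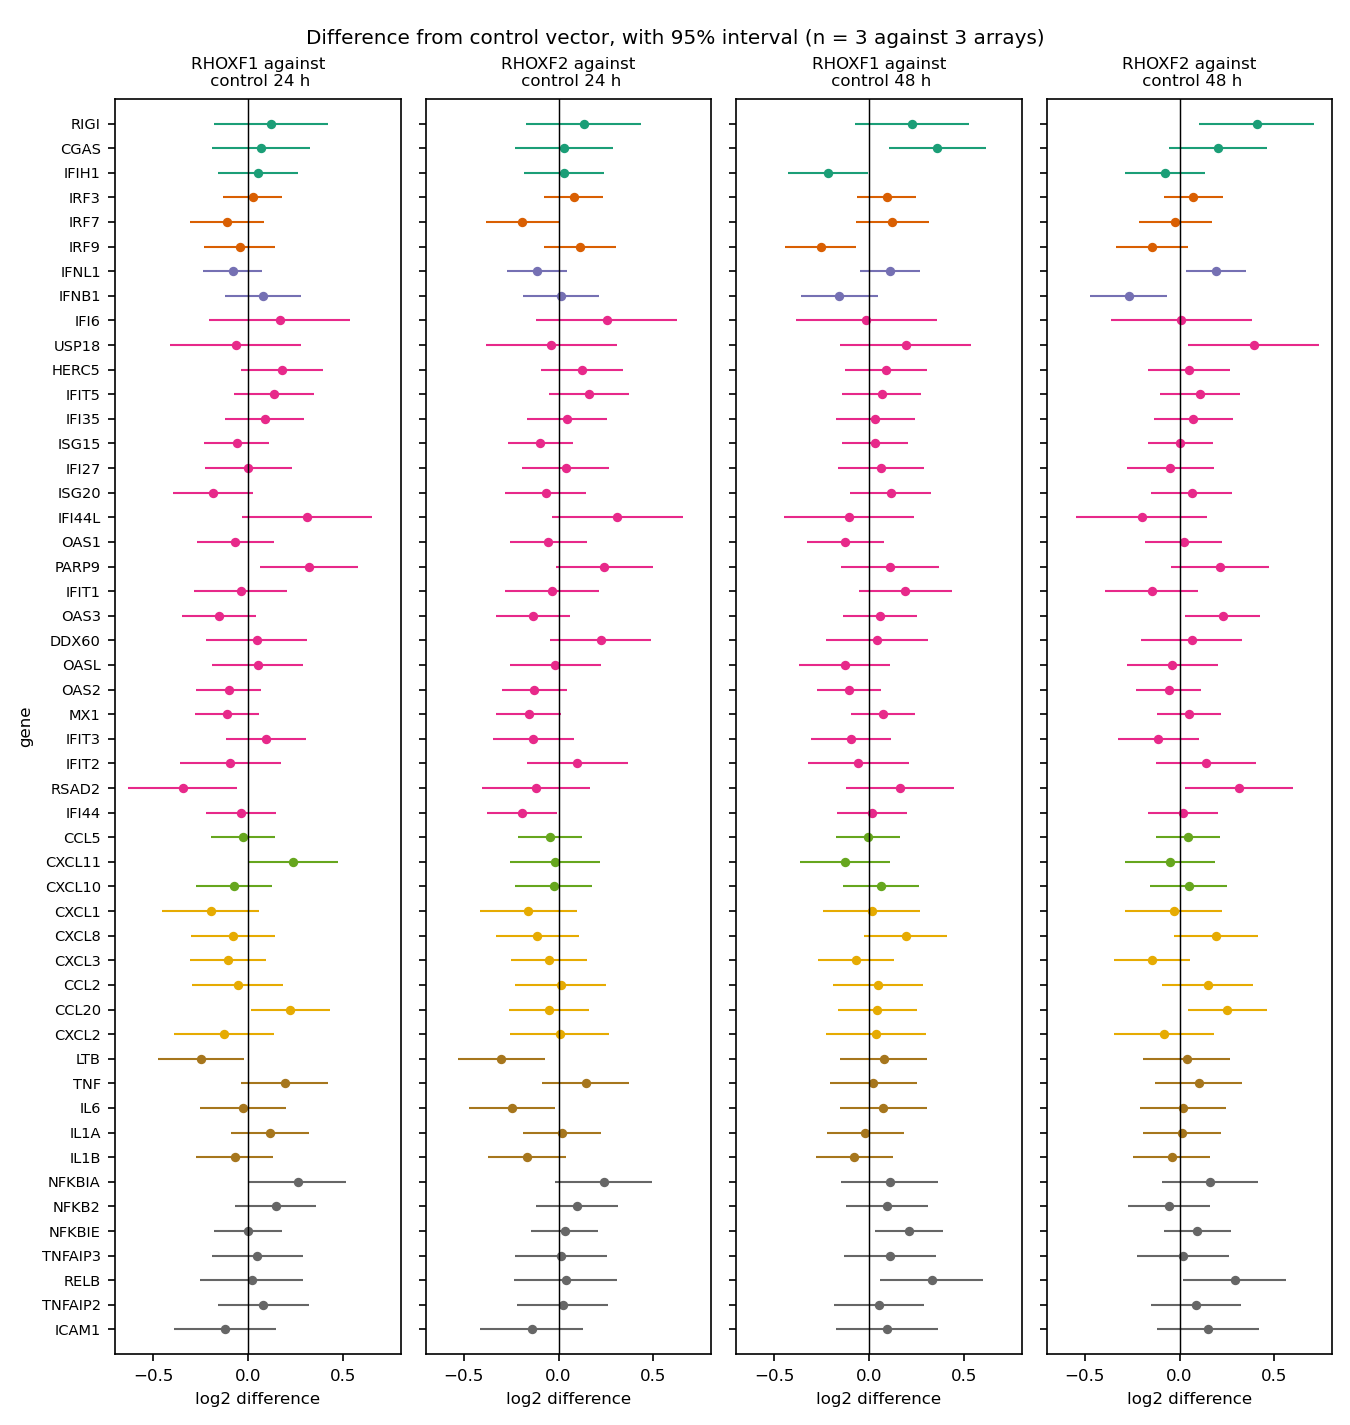
Log2 difference from control vector for each member gene (x axis, 1 panel per comparison, 3 arrays against 3), with points for limma's estimate, bars for its 95% interval and colours for the role groups of the levels plot. The points lie between -0.35 (RSAD2, RHOXF1 at 24 h) and 0.41 (RIGI, RHOXF2 at 48 h), and none passed the adjusted test.

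At 24 h the highest difference with RHOXF1 was that of PARP9, which acts with an E3 ligase in interferon signalling. It read 6.10, 5.81 and 5.92 with RHOXF1, 6.05, 5.73 and 5.80 with RHOXF2 and 5.70, 5.58 and 5.58 with control. All arrays of both RHOX groups were above the control arrays, by 0.32 ± 0.12 (SE) and 0.24 ± 0.12, with limma adjusted p of 0.961 and 0.666. NFKBIA, which encodes the inhibitor that holds NF-kappa-B in the cytosol, read 9.55, 9.66 and 9.75 with RHOXF1, 9.52, 9.5 and 9.87 with RHOXF2 and 9.35, 9.24 and 9.59 with control. The groups overlapped, and the differences were 0.26 ± 0.12 and 0.24 ± 0.12 (adjusted p = 0.961 and 0.667 by limma). LTB read lower, at 7.78, 7.82 and 7.78 with RHOXF1 and 7.67, 7.86 and 7.67 with RHOXF2, against 8.12, 8.11 and 7.89 with control. In this brightest LTB cluster no array of either RHOX group reached the control arrays. The differences were -0.25 ± 0.11 and -0.30 ± 0.11 (limma adjusted p = 0.961 and 0.507). A dimmer LTB cluster overlapped between the groups. It read 6.37, 6.21 and 6.13 with RHOXF1, 6.25, 6.36 and 6.07 with RHOXF2 and 6.62, 6.42 and 6.14 with control. NFKBIA with RHOXF2 came to 0.12 without RHOXF2 24 h replicate 3 and to 0.16 without control 24 h replicate 2. The differences of RSAD2 (-0.35), CCL20 (0.22), CXCL11 (0.24), IFI44L (0.31) and ISG20 (-0.19) with RHOXF1 and of IL6 (-0.25), IFI44 (-0.19) and IFI44L (0.31) with RHOXF2 did not pass either. RSAD2, CCL20, CXCL11, IL6 and IFI44 lay within the olfactory range. The mean of the olfactory clusters at 24 h was 4.47 with control, 4.42 with RHOXF1 and 4.41 with RHOXF2.

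At 48 h with RHOXF1, CGAS read 3.95, 4.12 and 4.0, against 3.61, 3.60 and 3.78 with control. The groups did not overlap, and all 6 values lay below the olfactory median (0.36 ± 0.12, limma adjusted p = 0.545). RELB, the partner of NFKB2 in the noncanonical pathway, read 7.13, 7.61 and 7.00 against 6.87, 7.02 and 6.86 (0.33 ± 0.13, adjusted p = 0.631 by limma). IRF9, the DNA-binding part of the interferon-activated complex, read 6.61, 6.39 and 6.47 against 6.63, 6.84 and 6.76 (-0.26 ± 0.09, adjusted p = 0.584 by limma). The RELB difference was 0.15 without RHOXF1 48 h replicate 2, the array at 7.61. IRF9 was lower on each RHOXF1 array than on any control array, whereas RELB overlapped. NFKBIE (0.21), IFIH1 (-0.21) and IFNB1 (-0.16) did not pass either, and IFNB1 came to -0.034 without RHOXF1 48 h replicate 2.

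At 48 h with RHOXF2, RIGI read 6.06, 6.25 and 6.27 against 5.58, 5.63 and 6.14 with control, and control replicate 3 lay within the RHOXF2 range. The difference was 0.41 ± 0.14 (limma adjusted p = 0.273), and 0.37 without RHOXF2 replicate 3. IFNB1 read 3.30, 3.53 and 3.39 against 3.58, 3.77 and 3.68, and IFNL1 6.30, 6.35 and 6.44 against 6.21, 6.13 and 6.18. IFNB1 was lower on each RHOXF2 array than on any control array and IFNL1 higher. The difference was -0.27 ± 0.10 (limma adjusted p = 0.275; -0.26 without replicate 3) for IFNB1 and 0.19 ± 0.07 (adjusted p = 0.319; 0.16 without it) for IFNL1, and neither passed. CCL20, a chemokine for memory T cells and dendritic cells, read 4.65, 4.70 and 4.58 against 4.42, 4.48 and 4.29 (0.25 ± 0.10, limma adjusted p = 0.325; 0.28 without replicate 3). USP18 read 7.68, 7.45 and 8.37 against 7.55, 7.37 and 7.40. Its difference of 0.39 ± 0.16 (adjusted p = 0.347 by limma) came to 0.12 without replicate 3, the array at 8.37. OAS3 (0.23), RSAD2 (0.31), RELB (0.29), IRF9 (-0.15) and CXCL3 (-0.15) did not pass either. CXCL3 came to -0.071 without RHOXF2 48 h replicate 1 and to -0.079 without control 48 h replicate 1.

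ISG15, the ubiquitin-like effector, read 7.11, 6.89 and 6.93 with control at 24 h, 6.91, 6.92 and 6.91 with RHOXF1 and 6.89, 7.00 and 6.75 with RHOXF2. At 48 h it read 6.85, 6.85 and 6.74 with control, 6.87, 6.91 and 6.74 with RHOXF1 and 6.83, 6.85 and 6.76 with RHOXF2. The 4 differences from control ran from -0.096 to 0.031, and the highest upper interval limit among them was 1.15-fold. For CXCL10, 0 of 4 comparisons separated the groups: the arrays read 3.5, 3.76 and 3.81 with control at 24 h and 3.81, 3.53 and 3.73 at 48 h, and 3.52 to 3.84 on the 12 RHOX arrays.

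Between the RHOX vectors, 0 of 55 member clusters passed the adjusted test at 24 h (0.0141% of all clusters) or at 48 h (0.0519%) by limma, and 3 (1.70% of all clusters) and 1 (3.52%) had an unadjusted p under 0.05. The groups did not overlap for 4 member clusters at 24 h (6.20% of all) and 3 at 48 h (9.23%). The member with the smallest p at 48 h was IFIT1, which binds RNA that lacks a host cap. It read 5.78, 5.59 and 5.79 with RHOXF1 and 5.44, 5.38 and 5.34 with RHOXF2, without overlap (0.34 ± 0.12, limma adjusted p = 0.998; 0.31 without RHOXF2 replicate 3). At 24 h CCL20 read 4.47, 4.72 and 4.78 with RHOXF1 against 4.33, 4.41 and 4.41 with RHOXF2 (0.27 ± 0.10, adjusted p = 1 by limma), and at 48 h it was the RHOXF2 arrays that read higher (-0.21). CXCL11 (0.26) and IFIT3 (0.23) followed at 24 h. On the side that read lower with RHOXF1 the smallest p values were those of IRF9 (-0.16), RSAD2 (-0.23) and IFIT2 (-0.19) at 24 h and of OAS3 (-0.17) and IFIT2 (-0.20) at 48 h.

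The difference of each vector's effect between the times was tested as an interaction, and 0 of 55 member clusters passed for RHOXF1 (0.00% of all clusters; 5 members and 4.70% of all at an unadjusted p under 0.05 by limma) or RHOXF2 (0.0141% of all; 8 members and 8.75% of all at an unadjusted p under 0.05). The unadjusted RHOXF1 count holds LTB more than once, through clusters of identical values. RSAD2 had an interaction of 0.51 ± 0.19 with RHOXF1 (limma adjusted p = 0.95) and 0.43 ± 0.19 with RHOXF2 (adjusted p = 0.56). IFNL1, with 0.31 ± 0.11 for RHOXF2 (adjusted p = 0.534 by limma), had the smallest p among members.

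A minority of members did change between 24 h and 48 h, and the effectors IFI44L and IFI27 and the NF-kappa-B subunit gene NFKB2 rose with the smallest adjusted p. In cells with control vector 6 of 55 member clusters passed the adjusted test by limma, 10.9% against 17.8% of all named clusters. In that comparison 4 were higher (7.27% against 9.89% of all) and 2 lower (3.64% against 7.89%). With RHOXF1 3 of 55 passed (5.45% against 4.42% of all), all higher (3.06% of all were called higher), and with RHOXF2 0 of 55 (1.24% of all; 11 members, 20%, at an unadjusted p under 0.05 against 16.7%). The mean time difference of the 3 vectors, 9 arrays against 9, passed for 11 of 55 clusters, 20% against 29.6% of all. Of these clusters 10 were higher (18.2% against 16.3% of all) and 1 lower (1.82% against 13.3%). They belonged to 9 genes, 8 higher and 1 lower, and the median over the 50 genes was -0.0019, against -0.011 over all clusters. At an unadjusted p under 0.05 the member counts were 20 in control (36.4% against 33.5% of all), 10 with RHOXF1 (18.2% against 20.2%) and 19 in the mean of the vectors (34.5% against 40.2%). The times did not overlap for 16 of 55 clusters in control (29.1% against 30.3% of all), 11 with RHOXF1 (20% against 29.8%) and 11 with RHOXF2 (20% against 20.1%). Clusters of LTB and TNF with identical values were each counted here. In control both genes were among the unadjusted and the non-overlap counts. By the adjusted test the members were called at a share below or near that of all clusters in each of these comparisons. The control count was 3 without 24 h replicate 2, 10 without 24 h replicate 3 and 2 without 48 h replicate 3. That of RHOXF1 was 1 without replicate 2 of either time and 0 without 24 h replicate 3, 48 h replicate 1 or 48 h replicate 3, and that of RHOXF2 was 2 without 48 h replicate 3. Arrays 1 to 9 were all 24 h and arrays 16 to 24 all 48 h, so time and array order cannot be told apart. With no untransfected cells at either time, the effect of plasmid uptake and that of time in culture cannot be told apart either.

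IFI44L is an effector with a pair of ISRE cores in the window printed above. On control arrays it read 5.56, 5.69 and 5.85 at 24 h and 6.71, 6.44 and 7.05 at 48 h. With RHOXF1 it read 6.22, 5.70 and 6.12 and then 6.64, 6.64 and 6.60. With RHOXF2 it read 6.19, 6.0 and 5.84 and then 6.77, 6.65 and 6.17. The times did not overlap with control or RHOXF1, and with RHOXF2 they did, through replicate 3 at 48 h. IFI44L rose by 1.03 ± 0.16 with control (limma adjusted p = 0.000854) and by 0.61 ± 0.16 with RHOXF1 (adjusted p = 0.0415). With RHOXF2 the difference was 0.52 ± 0.16 (adjusted p = 0.115 by limma), or 0.70 with an adjusted p of 0.0254 without replicate 3. The time differences of the vectors were not shown to differ: the interaction was -0.42 ± 0.23 for RHOXF1 and -0.51 ± 0.23 for RHOXF2 (limma adjusted p = 0.95 and 0.564). The mean rise was 0.72 ± 0.09 (adjusted p = 2.88e-05 by limma). At 24 h IFI44L read 0.31 above control with either RHOX vector, which did not pass the test.

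NFKB2 encodes p100, the precursor of the noncanonical NF-kappa-B subunit and itself an NF-kappa-B target. On control arrays it read 8.33, 8.0 and 7.92 at 24 h and 8.60, 8.59 and 8.76 at 48 h. With RHOXF1 it read 8.34, 8.26 and 8.08 and then 8.79, 8.61 and 8.82, and with RHOXF2 8.23, 8.09 and 8.21 and then 8.56, 8.67 and 8.55. Every 48 h array was above every 24 h array, and the means differed by 0.50 ± 0.06 (limma adjusted p = 1.19e-05). The rise was 0.57 ± 0.10 with control (adjusted p = 0.00183 by limma) and 0.52 ± 0.10 with RHOXF1 (0.0123). With RHOXF2 it was 0.42 ± 0.10 at an adjusted p of 0.0514, and 0.44 at 0.0454 without RHOXF2 48 h replicate 3. The call with RHOXF1 was lost without RHOXF1 24 h replicate 3, 48 h replicate 1 or 48 h replicate 3 (adjusted p up to 0.0734). RELB (0.12), NFKBIA (-0.037) and TNFAIP3 (0.072) did not pass in the mean of the vectors.

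IFI27, a mitochondrial and nuclear envelope protein, was the other member whose times did not overlap over all 18 arrays. It ranged from 6.49 to 6.82 at 24 h and from 6.89 to 7.24 at 48 h. Such separation was seen for 2 of 55 member clusters (3.64%) and for 3.72% of all clusters. The mean rise of IFI27 was 0.38 ± 0.06 (limma adjusted p = 0.00022), with 0.39 in control (0.0217), 0.45 with RHOXF1 (0.0276) and 0.30 with RHOXF2 (0.165). Its call in control was lost without control 24 h replicate 1, 48 h replicate 1 or 48 h replicate 3 (adjusted p up to 0.0891). IFI27 also lost that call when only the control arrays were fitted. Its call with RHOXF1 was lost without any 1 of the 6 arrays compared (up to 0.108). That of IFI44L with RHOXF1 was lost without any of them but 24 h replicate 1 (up to 0.176). The calls of IFI44L, NFKB2 and IFI27 in the mean of the 3 vectors held with each of the 18 arrays left out.

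DDX60, a helicase that aids RIG-I, read 5.05, 4.90 and 4.94 with control at 24 h and 5.12, 5.54 and 5.51 at 48 h. It rose there by 0.43 ± 0.13 (limma adjusted p = 0.0288) and over the 3 vectors by 0.37 ± 0.07 (0.000955). Its call in control was lost without replicate 2 or 3 of either time (adjusted p up to 0.110), and also when only the control arrays were fitted. IFIT3 (0.21 ± 0.06, limma adjusted p = 0.0124) and TNF (0.21 ± 0.06, adjusted p = 0.0153) also rose in the mean, the latter counted as 3 identical clusters. IFIT1 (0.20, adjusted p = 0.0291) and CGAS (0.20, adjusted p = 0.0421) rose by the same test, but the first was lost in 9 and the second in 11 of the 18 fits that leave out an array, with adjusted p up to 0.0681 and 0.0963. Of these genes that rose, DDX60, IFIT3, IFIT1 and CGAS lay within the olfactory range. IFIT5, a relative of IFIT1, fell by 0.19 (adjusted p = 0.0191 by limma). OAS1 (-0.15, adjusted p = 0.0501) and ISG20 (-0.15, adjusted p = 0.0544) lay just outside the threshold.

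The 2 members that fell in control were RSAD2 and ISG20. RSAD2 read 4.07, 4.55 and 4.44 at 24 h and 4.16, 3.77 and 3.79 at 48 h, and ISG20, an exonuclease, 6.89, 6.91 and 6.63 and then 6.39, 6.69 and 6.46. In both genes the times overlapped. The falls were -0.44 ± 0.14 (limma adjusted p = 0.0321) and -0.30 ± 0.10 (adjusted p = 0.0492). RSAD2 lay within the olfactory range, and the mean of the olfactory clusters in control was 4.47 at 24 h and 4.38 at 48 h. The RSAD2 call was lost without replicate 2 or 3 of either time (adjusted p up to 0.135). That of ISG20 was lost without 24 h replicate 1 or 2 or 48 h replicate 1 or 3 (up to 0.163). Both calls were also lost when only the control arrays were fitted. The ISG20 call was also lost with the replicate number as a block (adjusted p = 0.0560), after cyclic loess (0.0625) and with a trended, robust variance (0.0543). With the RHOX vectors neither gene passed, and the RSAD2 arrays read 4.16, 4.06 and 3.79 and then 4.15, 4.15 and 3.91 with RHOXF1. Among effectors as a group 8 of 21 read higher at 48 h in the mean of the vectors, 5 of them past the threshold (16.3% of all clusters passed as higher), and 1 of the 13 lower ones passed (13.3% of all). IFIT1 is among the 5. IFNB1, CXCL10, CXCL11, CCL5, IL6, MX1, OAS2, OAS3 and ISG15 did not pass in any of the time comparisons.

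**Figure D3:**
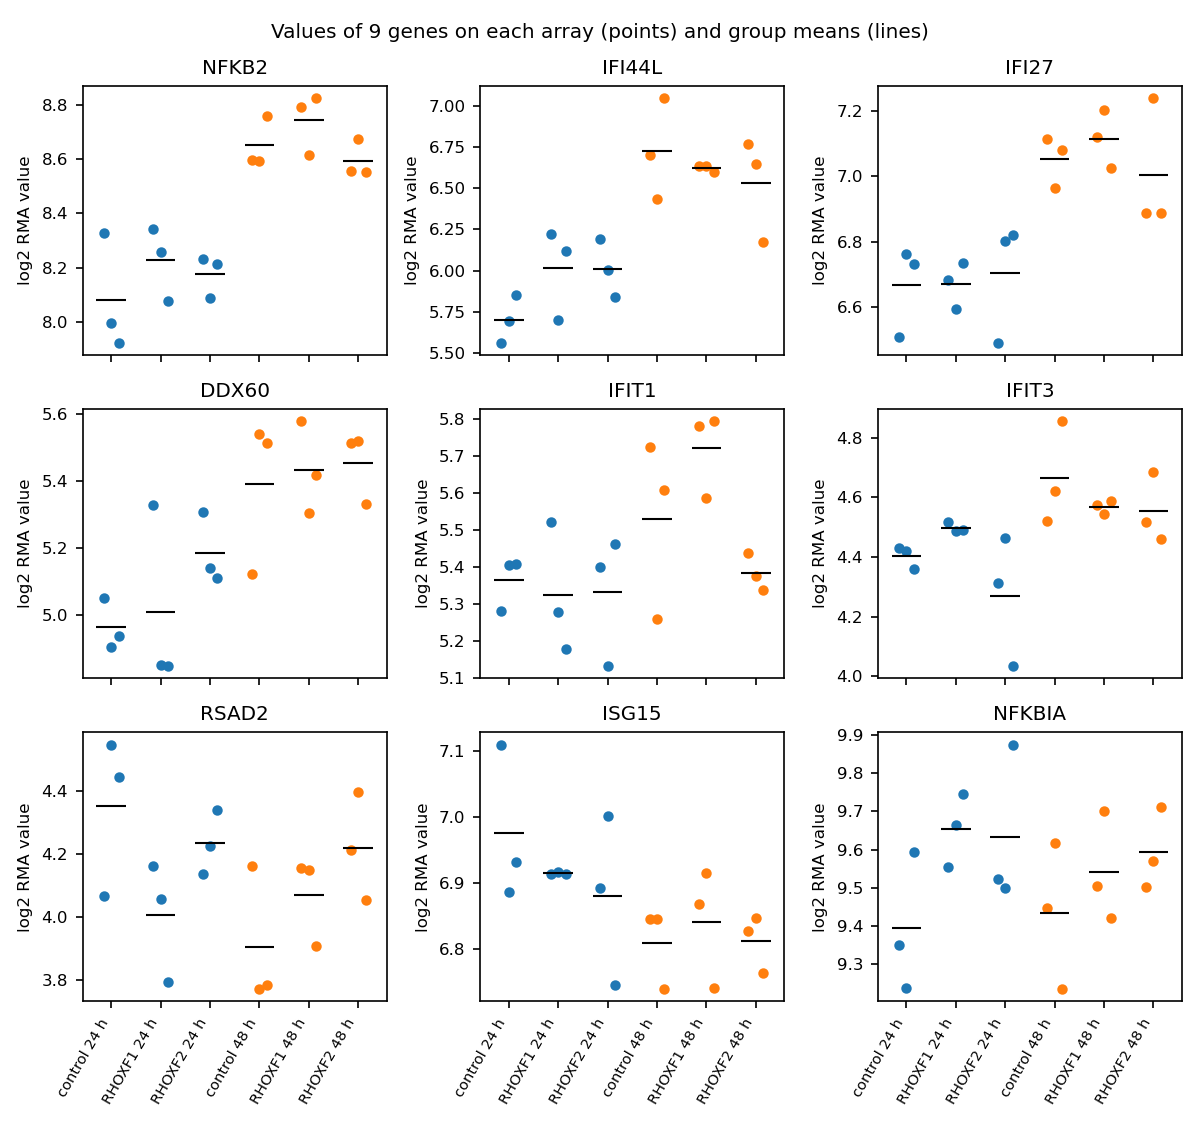
Log2 RMA value of 9 members on each array (points; x axis, the 6 groups of 3 arrays; blue 24 h, orange 48 h) with group means (lines), on a y axis scaled for each gene. NFKB2 and IFI27 separate the times on all 18 arrays, RSAD2 has 2 of its 3 control arrays at 48 h at 3.77 and 3.79, and ISG15 and NFKBIA overlap between all groups of a time.

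**Figure D4:**
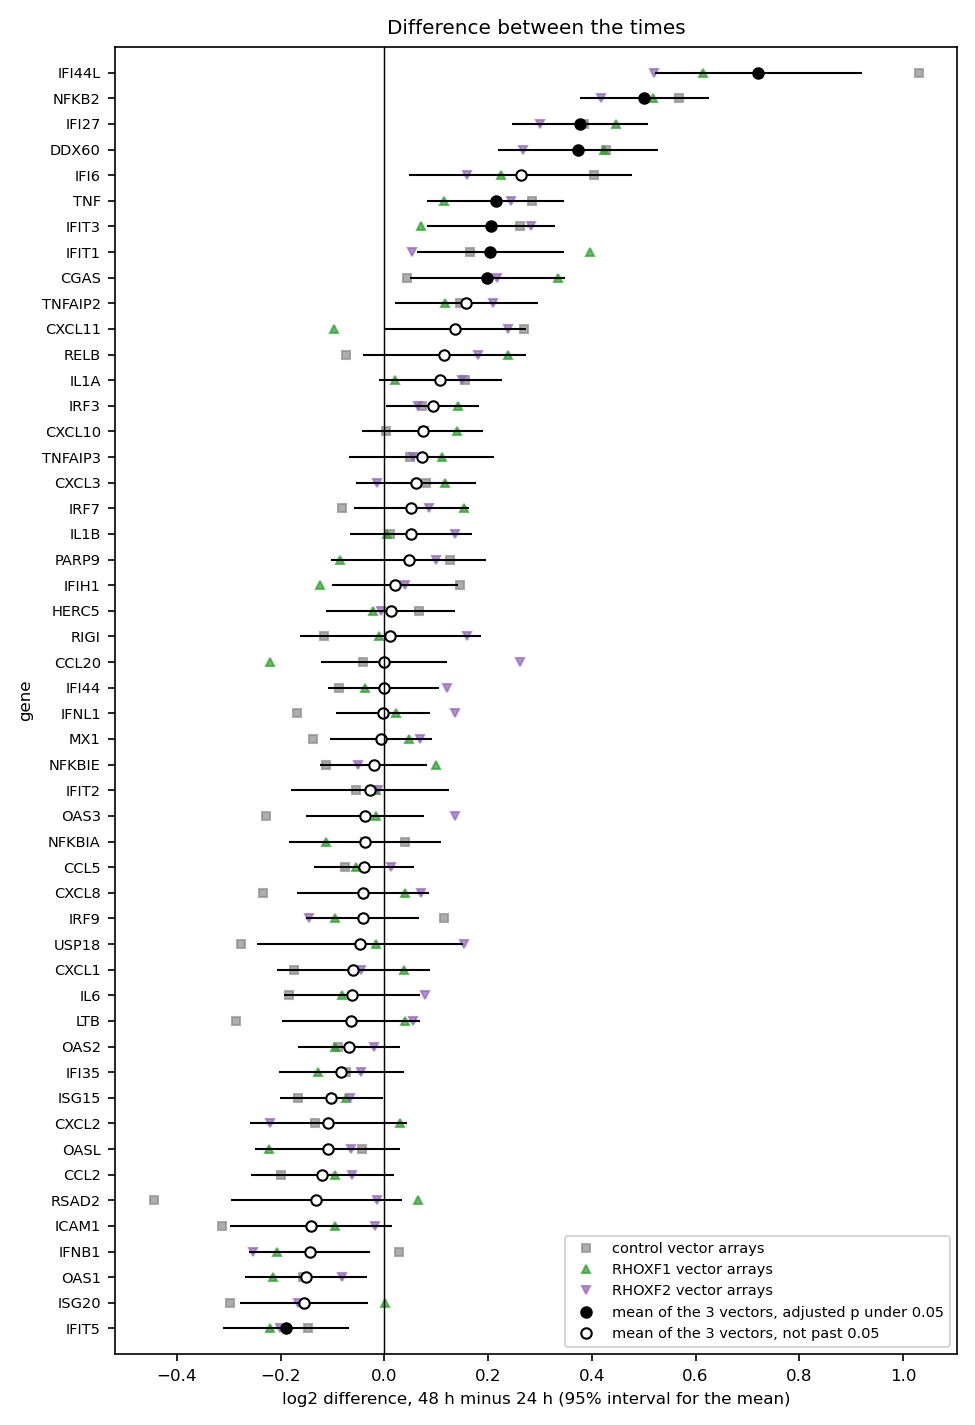
Log2 difference between 48 h and 24 h (x axis) for each member gene, with coloured symbols for the 3 vectors and circles with 95% interval bars for their mean, filled where the adjusted p was under 0.05. The filled circles are 8 genes above 0, from CGAS (0.20) to IFI44L (0.72), and IFIT5 below it (-0.19).

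A wider list of 69 genes of the same pathways, of which 63 had a cluster of their own, was tested the same way. By limma 0 of 63 passed against control with either vector at either time. The nearest were MYD88, the adaptor of Toll-like receptors (0.44 ± 0.13, adjusted p = 0.228), and the transcription factor IRF1 (0.32 ± 0.11, adjusted p = 0.253), both with RHOXF2 at 48 h. Without RHOXF2 48 h replicate 3 they came to 0.30 and 0.20. Between the times, in the mean of the vectors, 11 of 63 were higher (16.3% of all clusters were) and 9 lower (13.3% of all). TAP1, which carries peptides to MHC class I, rose by 0.50 ± 0.05 (adjusted p = 5.5e-06 by limma), with 8.12, 7.98 and 8.04 on control arrays at 24 h and 8.61, 8.49 and 8.55 at 48 h. It passed in each vector on its own, at 0.51 in control, 0.50 with RHOXF1 and 0.49 with RHOXF2. The RHOXF1 call was lost without 24 h replicate 3 (adjusted p = 0.0623). That with RHOXF2 was lost with only the RHOXF2 arrays fitted, or without 24 h replicate 2 or 3 or 48 h replicate 2 (up to 0.144). The membrane proteins BST2 (tetherin, 0.54 ± 0.09, adjusted p = 0.000202) and IFITM1 (0.54 ± 0.10, adjusted p = 0.000492), which hinder virus release and entry, also rose in the mean of the vectors. IRF1 (0.24), IFNAR2 (0.22), IFNLR1 (0.21) and IER3 (0.29) were among the others that rose. The kinases TBK1 (-0.38, adjusted p = 0.00156), which phosphorylates IRF3, and CHUK (-0.41, 0.00145) fell, with NFKB1 (-0.35), SAMD9 (-0.40) and XAF1 (-0.18). Of these, XAF1 lay within the olfactory range. The level of STING1 was near 8 on each array, from 7.92 to 8.52.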

How the data were processed

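RNA of HEK293 cells was hybridised to 18 Affymetrix Human Gene 1.0 ST arrays. The authors deposited log2 values, 1 per transcript cluster and array, and the submitters' processing notes name RMA and Affymetrix Expression Console 3.1. RMA brings the arrays close to one distribution, so a shift of most genes would not be seen. The values were used as deposited; array medians were 6.68 to 6.82, and 0 pairs of arrays were identical. The number of arrays, 3 per group, limits the precision.

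Symbols came from the platform's annotation table: 19460 clusters had 1 symbol, 1754 several and 12083 none, and the 21214 with a symbol were tested. limma 3.58.1 in R 4.3.3 (lmFit, eBayes) was fitted with 1 mean per group over all 18 arrays (12 residual and 6.50 prior degrees of freedom), and p-values were adjusted by Benjamini-Hochberg over the 21214 clusters at 0.05. Errors of differences are limma standard errors. The fit was checked on simulated data. The member, pathway and marker lists were chosen with earlier results of these data known. Named genes were members past the threshold, the 3 of smallest p per direction and comparison, and the brightest and most variable of each role. Some others, such as ISG15 and CXCL10, were named after their values were seen. Of pathway genes, those past the threshold and the 2 of smallest p were eligible. Alternatives were other normalizations, variance models and filters, fewer arrays, a replicate block and each array left out. The genome build of the array annotation is not given in the sources used here; promoter windows and coordinates are RefSeq's on GRCh38.p14.

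Replicate numbers were checked for pairing. Same-numbered arrays had correlated residuals (over 0.1) in 8 of 9 pairs at 24 h and 2 of 9 at 48 h. The labels do not say that equal numbers share a culture, so the main fit did not treat them as pairs. The main fit therefore leaves the correlation at 24 h out of account, and a replicate block was run as an alternative. For comparisons between times this block joined arrays of equal number across 24 h and 48 h, a pairing that was not checked.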

Additional observations from a re-analysis of the deposited data

How the results depend on the processing

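Against control and between the RHOX vectors, and for the difference of each vector's effect between times, 0 member clusters passed under every alternative run. The number of genes above the olfactory range was 28 throughout. Between times in control, 6 clusters passed; 13 did after repeated quantile normalization, 1 with only clusters above the median level and 2 with only the compared arrays (2 to 10 with an array left out). With RHOXF1 the 3 became 5 with quantile normalization, 1 above the median level and 0 to 4 with an array left out. With RHOXF2 the 0 became 1 with quantile normalization, above the median level or with a trended, robust variance, and 0 to 2 with an array left out. In the mean of the 3 vectors the 11 became 2 above the median level and 10 to 15 with an array left out. The filter on the median level removes most members. With the replicate block, control had 5, RHOXF1 5 and RHOXF2 1, and arrays correlated best with their own number in 8 of 9 cases at 24 h and 2 of 9 at 48 h. Among named members no difference past the threshold reversed: 1077 alternatives kept direction and side, 56 lost the call and 18 gained it. For pathway genes, whose alternatives were added after the data were seen, 833 kept both and 67 lost the call. Causes were not tested.

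Signal over background limits the levels of 22 of 50 members, which were not distinguished from the olfactory range, although DDX60, IFIT3, IFIT1, CGAS and RSAD2 among them passed a test between times.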

Other observations

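Single-vector time differences add to the pathway genes already given. In control cells 5 of 63 were higher at 48 h and passed by limma, beside 9.89% of all clusters (TAP1 0.51, BST2 0.70, IFITM1 0.79, IFNAR2 0.43 and REL 0.30 on the log2 scale), and 6 were lower, beside 7.89% of all (CHUK -0.56, NFKB1 -0.48, SAMD9 -0.46, TBK1 -0.45, XAF1 -0.32 and SELE -0.25). REL and NFKB1 encode NF-kappa-B subunits and CHUK a kinase that activates them. With RHOXF1, where 3.06% of all clusters passed as higher, PSMB8, a subunit of the immunoproteasome, rose beside TAP1. The PSMB8 rise was 0.38 (limma adjusted p = 0.0415), a call lost without RHOXF1 24 h replicate 2 or 3 or 48 h replicate 1 or 3 (up to 0.164). PSMB8, SELE and XAF1 read below the olfactory 95th percentile of 5.79 on every array. The calls of TAP1, BST2, IFITM1 and IFNAR2 in control held under every alternative run. Those of SELE and SAMD9 were each lost in 8 of 12 alternatives, normalizations and left-out arrays among them (adjusted p up to 0.145 and 0.217), with SAMD9 also lost under the replicate block. XAF1 was lost in 5 of 12 (up to 0.0778), REL in 5 of 13 (up to 0.104), TBK1 in 5 of 13 (up to 0.119), CHUK in 3 of 13 (up to 0.0842) and NFKB1 in 2 of 13 (up to 0.0752). Among control arrays, leaving out 24 h replicate 3 or 48 h replicate 2 ended the calls of CHUK and NFKB1, and 24 h replicate 1 or 48 h replicate 2 that of XAF1. Replicate 2 or 3 of either time did so for SAMD9, 24 h replicate 1 or 2 or 48 h replicate 2 or 3 for REL, 24 h replicate 2 or 3 or 48 h replicate 1 or 2 for TBK1, and any array but 24 h replicate 3 for SELE.

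BST2 read 5.94, 5.66 and 5.71 on control arrays at 24 h and 6.24, 6.76 and 6.42 at 48 h. IFITM1 read 9.78, 9.14 and 9.43 and then 10.51, 10.16 and 10.06. In both the times did not overlap. In the mean of the vectors IFNGR2 (0.20), NFKBIZ (0.17), REL (0.15) and B2M (0.12) were also higher, and POLR3A (-0.21), IKBKE (-0.16), IFNAR1 (-0.15) and CMPK2 (-0.15) lower. The calls of B2M, REL and IKBKE were lost without 12, 5 and 3 of the 18 arrays in turn, and that of XAF1 under repeated quantile normalization. Of 9 receptor and JAK-STAT genes 9 were above the olfactory range, and of 17 further sensors and adaptors 12 were. AIM2 (3.66), IFI16 (3.51) and TLR7 (3.76), which sense DNA or RNA, were not.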
